A study of Zea mays with 10 samples.

Results

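The genes described here lie on chromosome 6 of maize, with a locus that starts between 55 and 65 Mb in the B73 RefGen_v2 assembly. They were chosen by position and by level: a gene of the deposited expression table counted if it has no name there and reaches 1 RPKM (reads per kilobase of exon, scaled to the number of mapped reads) or more in at least 1 genotype. The RPKM that admit a gene are those compared below, so the comparison is a description and was not tested. Of the 109874 genes in the table, 372 start in this interval, 371 of them without a name, and 83 met the rule.

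The study compared vegetative apices, that is the shoot meristem with its youngest leaf primordia, of 2-week-old seedlings that were wild type, B73, or carried the lbl1-rgd1 allele of leafbladeless1. The allele had been crossed into B73 from another stock, 3 times or more, and plants came from families in which it segregated, so the mutants can hold chromosome segments from the donor of the allele. Messenger RNA was sequenced from 2 samples of each genotype, and the table gives 1 pooled RPKM per gene and genotype. Small RNA was sequenced from 3 samples of each genotype and is not analysed here.

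The gene leafbladeless1 encodes the maize SGS3 protein, which acts in the production of trans-acting short interfering RNAs. These small RNAs direct the cutting of transcripts, among them those of auxin response factors, and in grasses the pathway is known for its part in leaf polarity and the growth of the leaf blade. The gene itself lies on chromosome 6 and ends 37.96 Mb before the first of the 83 genes. Repeated crossing to B73 replaces donor chromosome step by step, and after a few crosses donor segments can remain. Around the selected allele, linked donor sequence is lost only by recombination. In these data a difference caused by the mutation and one caused by donor sequence, linked or not, cannot be told apart.

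The lbl1 transcript was at 301 RPKM in wild type against 226 in lbl1, so the gene was still transcribed in the mutant. As a check of the tissue, 5 of 13 listed meristem and leaf primordium names were found, in 6 rows. All 6 rows reached 1 RPKM in at least 1 genotype. Among them were the knotted1-like gene LG3 (25.6 and 51.3 RPKM), fea2 (20.3 and 15.8 RPKM) and a pair of WOX3A genes (2.67 and 0.380 RPKM, 2.54 and 1.01 RPKM). Paired values give wild type first throughout. Of 8 mature leaf names 3 were found, with PEP1 listed at 0 in both genotypes, RCA1 at 0.0524 and 0.366 RPKM and PPDK1 at 1.35 and 6.32 RPKM. The root hair gene rth1, the 1 name found of 5 for root, was at 43.5 and 38 RPKM. That is a level like that of the meristem genes, so the check does not separate apex from root. Because each genotype has 1 pooled value, no spread between samples is known, no difference below has a replicate check, and fewer cells of a type cannot be told from less RNA per cell.

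Most of the 83 genes were lower in lbl1. In all, 59 of 83 (71.1%) had the lower value in lbl1 and 24 the higher one, against 56.3% lower among all 29929 genes at 1 RPKM or more in either genotype. The median level was 15.6 RPKM in wild type against 11.8 in lbl1. Summed over the 83 genes, the level was 4209 RPKM in wild type against 3685 in lbl1, a ratio of 0.875. The median of log2(lbl1/wild type) was -0.45, with quartiles of -1.02 and 0.11, over the 79 genes above 0 in both genotypes. Over all genes it was -0.09. Log2 ratios and folds are printed as the RPKM give them. The 24760 genes at 1 RPKM or more in both genotypes have a median of -0.10, and measured from that value the median of the interval was -0.35.

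A fold of 2 was used as the mark of a large difference, with a gene listed at 0 in 1 genotype counted as past it. By this mark 23 genes (27.7%) were lower in lbl1, where the background over all genes is 12.9%. Another 9 genes (10.8%) were higher in lbl1, with a background of 12.6%, and 51 were neither. Past 2-fold in either direction were 32 genes (38.6%, background 25.4%). At 4-fold, 13 genes were lower (background 5.87%) and 2 were higher (background 6.53%). Measured from the all-gene median, 22 genes were at least 2-fold lower (26.5%, background 11.4%) and 9 higher (10.8%, background 13.7%).

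**Figure D1:**
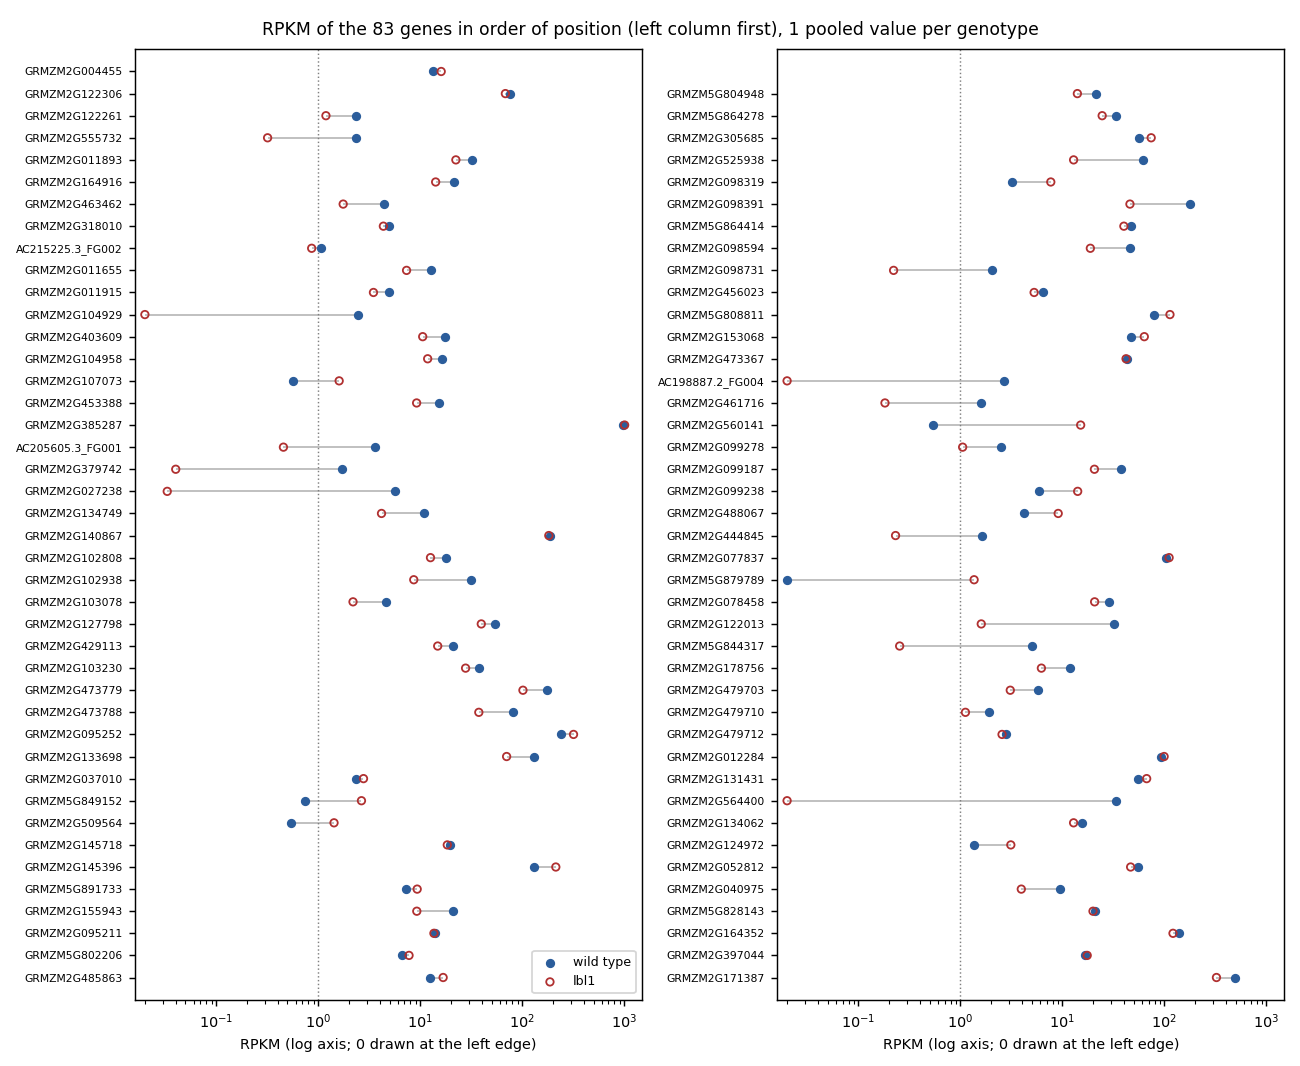
RPKM on a log axis for each of the 83 genes in order of position, left column first, with wild type as filled and lbl1 as open points; a value of 0 is drawn at the left edge. The open point lies to the left of the filled point for 59 genes, and the 3 genes at 0 in lbl1 and the 1 at 0 in wild type have a point on the edge.

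The level filter bears on these counts, since a gene that reached 1 RPKM in only 1 genotype had to differ. Of the 83 genes, 66 reached 1 RPKM in both genotypes, 12 in wild type alone and 5 in lbl1 alone. All but 1 of those 17 genes were past 2-fold. Among the 66 genes, 12 (18.2%) were at least 2-fold lower, against a background of 6.79% under the same filter, and 4 were higher (background 6.36%). Their median log2 ratio was -0.43, against -0.10 over all genes under this filter, and 47 of the 66 (71.2%) were lower in lbl1, against 57.4%. Of the 32 differences past 2-fold, 16 were thus in genes under 1 RPKM in 1 genotype.

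The 3 genes just inside the filter were AC215225.3_FG002 (higher value 1.07 RPKM), GRMZM5G879789 (1.36 RPKM) and GRMZM2G509564 (1.43 RPKM). The 3 just outside were GRMZM2G020580 (0.910 RPKM), AC194005.3_FG004 (0.850 RPKM) and GRMZM2G069335 (0.744 RPKM), each of which was listed at 0 in the other genotype.

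The interval can be set beside the 10 Mb on either side, where the same rule gives 42 genes from 45 to 55 Mb and 94 genes from 65 to 75 Mb. Under this rule genes at least 2-fold lower were about as frequent there, at 12 of 42 (28.6%) and 24 of 94 (25.5%). Genes at least 2-fold higher made up 9 of 42 (21.4%) and 14 of 94 (14.9%). Among the 2220 unnamed genes of chromosome 6 outside these 3 windows the shares were 16.5% lower and 12% higher, and on the other chromosomes 12.6% for each. The share in the interval, 27.7%, lay between those of its flanks. The level filter bears on the flanks too, since 11 of their 12 and 14 of their 24 lower genes reached 1 RPKM in wild type alone. Among flank genes at 1 RPKM or more in both genotypes, 1 of 20 (5%) and 10 of 67 (14.9%) were at least 2-fold lower. In the interval 12 of 66 (18.2%) were. At least 2-fold higher under this filter were 1 of 20 and 6 of 67 flank genes, against 4 of 66.

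The middle of the distribution lay lower in the interval than in either flank. The median log2 ratio was -0.18 from 45 to 55 Mb (30 genes above 0 in both genotypes) and -0.05 from 65 to 75 Mb (87 genes), against -0.45 in the interval. The share of genes lower by any amount was 61.9% and 53.2% in the flanks. Between 1.5- and 2-fold lower stood 13 genes of the interval (15.7%), and between 1.5- and 2-fold higher stood 1 (1.2%). Over all genes the same bands held 10.7% and 6.62%. The differences between the interval and its flanks were not tested, since genes are not replicates of a genotype.

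**Figure D2:**
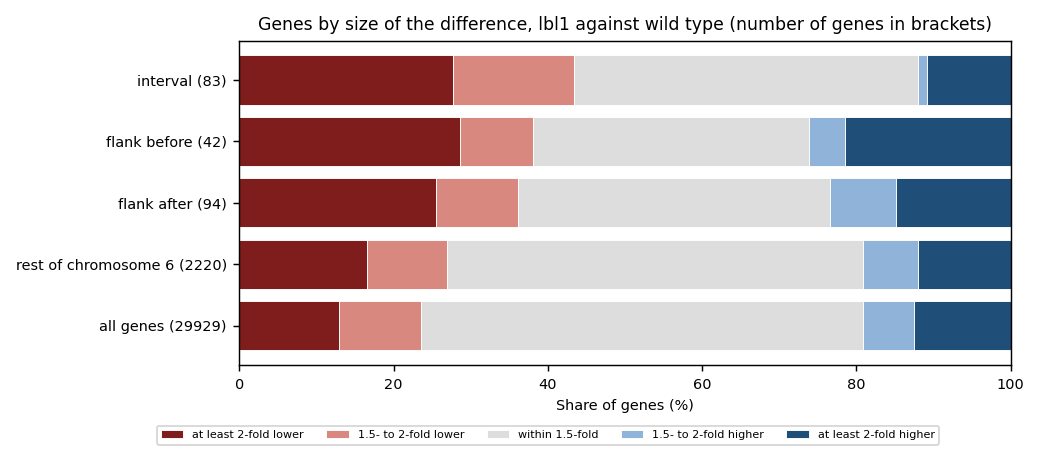
Share of genes, in percent, in 5 bands of the difference between lbl1 and wild type, for the interval, the 10 Mb before and after it, the unnamed genes of chromosome 6 outside these windows and all genes at 1 RPKM or more in either genotype. The darkest band, at least 2-fold lower, has much the same width in the interval (27.7%) and its flanks (28.6% and 25.5%), while the band from 1.5- to 2-fold lower is 15.7% wide in the interval.

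Chromosome 6 holds other stretches with a low median. Among 16 windows of 10 Mb along it, from 5 Mb onward, the interval had the third lowest median, after 5 to 15 Mb (-0.74) and 25 to 35 Mb (-0.52). From 5 to 15 Mb, 52.9% of the genes were at least 2-fold lower. The window that holds lbl1 itself, from 15 to 25 Mb, had a median of -0.03 with 36.9% of its genes at least 2-fold lower.

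The share of lower genes varied between bins of 1 Mb, but each bin holds few genes and the variation was not tested. From 55 to 56 Mb, 13 of 14 genes were lower in lbl1, and from 57 to 58 Mb all 7 were. From 58 to 59 Mb only 5 of 11 were lower. By count, the bin from 62 to 63 Mb held the most genes past 2-fold, 7 of 14, with 4 lower and 3 higher. The share over all genes is 25.4%. Some smaller bins had a higher share, such as 4 of 6 genes from 56 to 57 Mb. Leaving out any 1 of the 10 bins gave medians between -0.48 and -0.36.

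**Figure D3:**
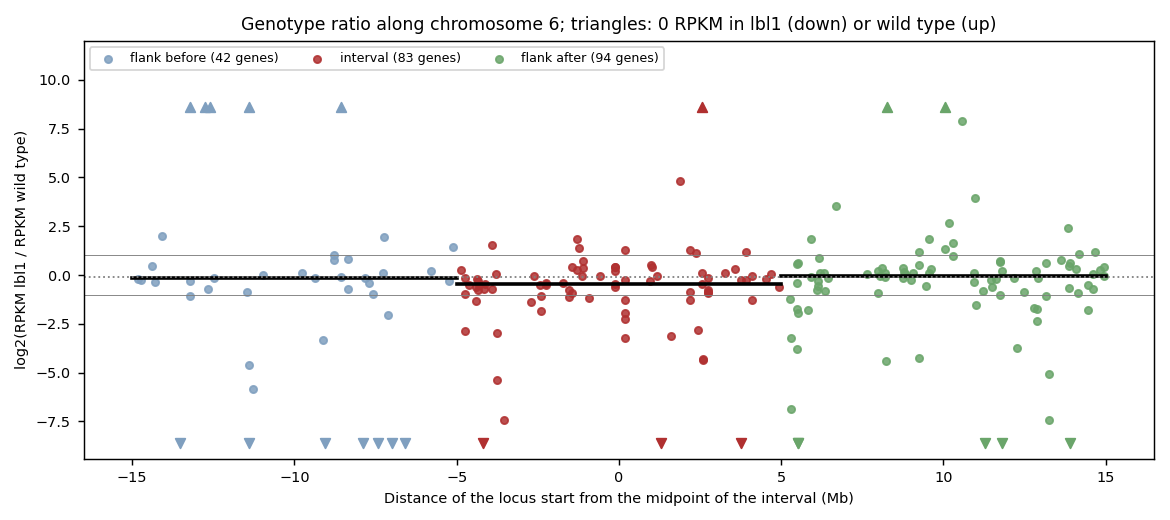
Log2 ratio of RPKM, lbl1 over wild type, against the distance of each locus start from the midpoint of the interval in Mb. Triangles mark genes listed at 0 in lbl1 (pointing down) or in wild type (pointing up), black lines the medians of -0.18, -0.45 and -0.05, the dotted line the all-gene median of -0.09 and thin lines 2-fold; the points of the interval are crowded just under 0.

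Some of the lower genes stood in runs along the chromosome. A first run of 13 consecutive genes, each lower in lbl1, extended from GRMZM2G122306 at 55252371 to GRMZM2G104958, which ends at 55884592. Of these, 3 were past 2-fold, where 12.9% of all genes are at least 2-fold lower. A second run of 13 genes extended from AC205605.3_FG001 at 56233567 to GRMZM2G473788, which ends at 58450019, with 7 past 2-fold. Between them stand 3 genes, of which GRMZM2G107073 (0.560 and 1.6 RPKM, marked by Cuffdiff as not tested) and GRMZM2G385287 (962 and 1009 RPKM) were higher in lbl1. The longest such run in each flank was 6 genes at 6 loci, in flanks of 42 and 94 genes. Run lengths elsewhere in the genome were not computed. With most genes of the interval lower, some runs would arise in any order, and the length of the runs was not tested. Genes at the same locus are not separate observations, and the runs of 13 genes covered 10 and 11 loci.

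In the first run 10 of the 13 genes were within 2-fold. GRMZM2G122306 was at 75.2 and 68.4 RPKM, GRMZM2G011893 at 32.3 and 22.4 RPKM and GRMZM2G104958 at 16.4 and 11.8 RPKM. The 3 genes past 2-fold were all under 5 RPKM. They were GRMZM2G555732, at 2.35 and 0.319 RPKM (7.35-fold lower), GRMZM2G463462, at 4.38 and 1.76 RPKM (2.49-fold lower), and GRMZM2G104929, with 2.48 RPKM for wild type and none for lbl1. The last has a locus of only 280 bp.

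The second run held the largest folds. GRMZM2G027238 was at 5.63 RPKM in wild type against 0.0331 in lbl1, which is 170-fold lower. Some 223 kb before it lies a locus shared by AC205605.3_FG001, at 3.61 and 0.456 RPKM (7.90-fold lower), and GRMZM2G379742, at 1.70 and 0.0401 RPKM (42.2-fold lower). Cuffdiff marked GRMZM2G379742 as not tested, and the 170- and 42.2-fold differences rest on very low lbl1 values of 0.0331 and 0.0401 RPKM. None of these 3 genes matched the later RefSeq annotation of maize (assembly NAM-5.0), which supplied names only. Together they went from a sum of 10.9 RPKM to 0.529 RPKM.

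Further along the same run, GRMZM2G102938 was at 31.3 and 8.65 RPKM (3.62-fold lower) and GRMZM2G103078, whose locus starts 406 bp past its end, at 4.58 and 2.19 RPKM (2.09-fold lower). RefSeq lists both identifiers under a single gene, and GRMZM2G102938 under a gene of its own as well, so whether they are separate genes is not settled by the names. GRMZM2G127798 was at 53.6 RPKM in wild type against 39.7 in lbl1. RefSeq gives this gene the names pgd2 and PGD, used for 6-phosphogluconate dehydrogenase, an enzyme of the oxidative pentose phosphate pathway, and also pdh2. Its neighbour GRMZM2G429113 was at 20.9 and 14.8 RPKM. These genes were 1.35- and 1.41-fold lower.

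The run ended at a locus with a pair of abundant transcripts. GRMZM2G473779 was at 174 and 102 RPKM (1.71-fold lower) and GRMZM2G473788 at 81.9 and 37.5 RPKM (2.18-fold lower). About 107 kb further on the direction changed between close neighbours. GRMZM2G095252 was at 241 RPKM in wild type against 318 in lbl1, and GRMZM2G133698, which starts 323 bp past its end, at 132 and 70.3 RPKM.

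A group of 6 genes just past 60 Mb combined high levels with large differences, and its sum went from 338 to 126 RPKM. GRMZM2G098391 was at 178 and 45.9 RPKM, 3.88-fold lower. It was the most abundant of the 23 genes at least 2-fold lower. GRMZM2G525938, with a locus of 100 bp, was at 61.2 and 12.9 RPKM (4.75-fold lower). Between those loci lies GRMZM2G098319, which went the other way, with 3.21 and 7.69 RPKM (2.40-fold higher).

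The same group holds a gene named for a family of leaf growth regulators. GRMZM2G098594, named GRF14 in RefSeq, was at 45.9 RPKM in wild type against 18.8 in lbl1, 2.45-fold lower. GROWTH-REGULATING FACTOR genes encode plant transcription factors known to promote cell proliferation in young leaves, and many of them are targets of the microRNA miR396. GRMZM2G098731, at the same locus, was at 2.05 and 0.221 RPKM (9.27-fold lower). Between GRF14 and GRMZM2G098391 lies GRMZM5G864414, at 47.2 and 40.0 RPKM, so that a gene 1.18-fold lower stood between genes 3.88- and 2.45-fold lower.

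**Figure D4:**
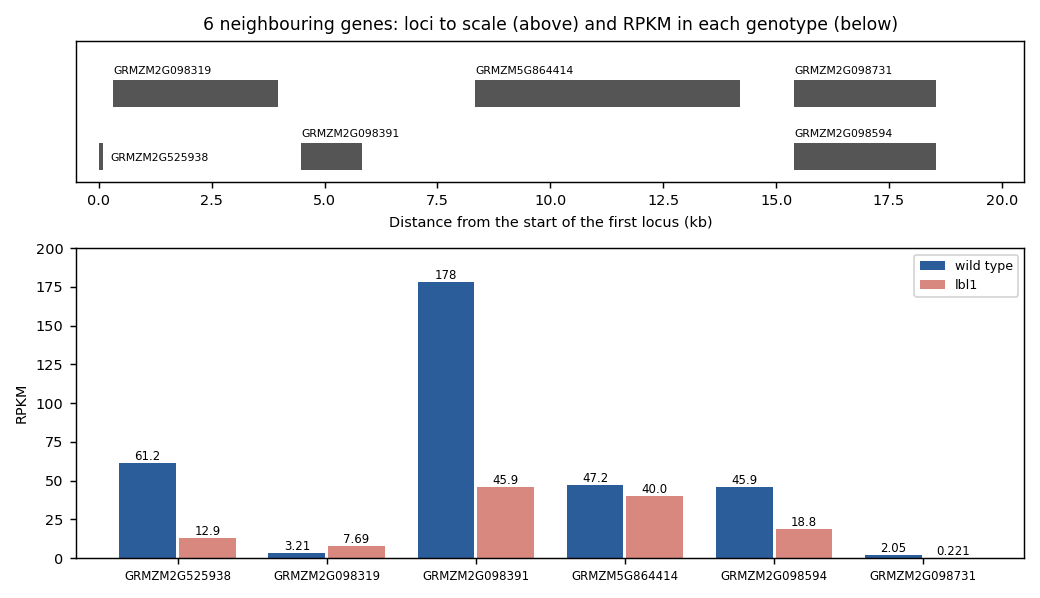
The 6 neighbouring genes just past 60 Mb, with their loci to scale in kb from the start of the first (top) and their RPKM in wild type and lbl1 as bars from 0 (bottom). The bars of GRMZM2G098391 (178 and 45.9 RPKM) and GRMZM2G098594, GRF14 (45.9 and 18.8 RPKM), are clearly shorter in lbl1, and GRMZM2G098319 (3.21 and 7.69 RPKM) is the one gene higher in lbl1.

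From 62 to 63 Mb the differences went in both directions. GRMZM2G122013 was at 32.3 RPKM in wild type against 1.6 in lbl1, 20.2-fold lower, and GRMZM5G844317, at the same locus, at 5.02 and 0.254 RPKM, 19.8-fold lower. RefSeq lists the gene matching GRMZM2G122013 as a transcribed pseudogene. GRMZM2G178756, to which RefSeq gives the name cdpk14, used for calcium-dependent protein kinases, was at 11.7 and 6.22 RPKM (1.89-fold lower). These kinases pass calcium signals on by phosphorylating other proteins. The locus next to it holds 3 genes, GRMZM2G479703 (5.70 and 3.08 RPKM), GRMZM2G479710 (1.93 and 1.12 RPKM) and GRMZM2G479712 (2.81 and 2.56 RPKM), all lower in lbl1 and none past 2-fold.

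The genes at least 2-fold higher in the same megabase did not exceed 14.1 RPKM in either genotype. GRMZM2G099238 was at 5.85 and 14.1 RPKM (2.41-fold higher), while GRMZM2G099187, at the same locus, was at 37.6 and 20.6 RPKM. GRMZM2G488067 was at 4.17 and 9.09 RPKM (2.18-fold higher). GRMZM5G879789 was listed at 0 in wild type, with 1.36 RPKM in lbl1, and it shares its locus with the abundant GRMZM2G077837 (103 and 111 RPKM). Cuffdiff marked both of these as failed.

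The largest difference upward was that of GRMZM2G560141, at 0.543 RPKM in wild type against 15.1 in lbl1, 27.8-fold higher. It had a locus of its own and no match in RefSeq. GRMZM5G849152 was at 0.744 and 2.65 RPKM (3.57-fold higher), and GRMZM2G509564, marked by Cuffdiff as not tested, at 0.547 and 1.43 RPKM (2.61-fold higher). GRMZM2G124972 was at 1.35 and 3.12 RPKM (2.30-fold higher). GRMZM2G145396 had a larger difference in RPKM, from 130 to 213, but this is 1.65-fold and Cuffdiff marked the gene as failed. All of the genes at least 2-fold higher had a mean under 20 RPKM.

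Besides GRMZM2G104929, AC198887.2_FG004 (2.67 RPKM in wild type) and GRMZM2G564400 (33.1 RPKM in wild type) were listed at 0 in lbl1. All 3 have short loci, of 280, 315 and 81 bp, and an RPKM rests on few reads where a gene is short. With GRMZM2G525938, the interval holds 4 genes with a locus under 500 bp, and all 4 were at least 2-fold lower. Over all genes with such short loci the share at least 2-fold lower is 38.5% and the share at least 2-fold higher 30.3%. Among the other 79 genes, 19 were lower (background 10.5%) and 9 higher (background 10.9%).

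The most abundant genes were mostly within 2-fold, as are most abundant genes of the genome. Of the 10 genes with the highest mean level, which made up 65% of the summed level in wild type, GRMZM2G098391 alone was past 2-fold. Over all genes with a mean of 20 RPKM or more, 4.18% were at least 2-fold lower and 5.4% at least 2-fold higher. GRMZM2G385287 led with 962 RPKM in wild type against 1009 in lbl1. It was followed by GRMZM2G171387 at 491 and 324 RPKM, a fold of 1.52 lower. GRMZM2G140867 (188 and 182 RPKM), GRMZM2G164352 (140 and 121 RPKM) and GRMZM2G077837 were close between genotypes. Cuffdiff marked GRMZM2G164352 and GRMZM2G077837 as failed.

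The share of genes past 2-fold depended on the level, as it did over all genes. With a mean of both genotypes under 5 RPKM, 13 of 26 genes were at least 2-fold lower (50%, background 24.4%). Of those 13 genes, 10 reached 1 RPKM in wild type alone and so had to be lower, and of the 11 genes of this class at 1 RPKM or more in both genotypes 3 were at least 2-fold lower. From 5 to 20 RPKM the count was 6 of 28 (21.4%, background 9.65%), and at 20 RPKM or more it was 4 of 29 (13.8%, background 4.18%). At least 2-fold higher were 5 of 26, 4 of 28 and 0 of 29 genes in these classes, with backgrounds of 23.5%, 8.29% and 5.4%. In the 2 flanks 10 of 26 (38.5%) and 16 of 45 (35.6%) genes under 5 RPKM were at least 2-fold lower. Of these, 10 and 11 reached 1 RPKM in wild type alone. From 5 to 20 RPKM the flank counts were 2 of 6 (33.3%) and 5 of 21 (23.8%), both shares above that of the interval. At 20 RPKM or more they were 0 of 10 and 3 of 28. The medians of the 3 classes in the interval were -0.98, -0.47 and -0.24, each under the corresponding median of all genes (-0.14, -0.15 and -0.03). At 20 RPKM or more 20 of 29 genes (69.0%) were lower in lbl1, against 53.2% of all genes in that class.

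**Figure D5:**
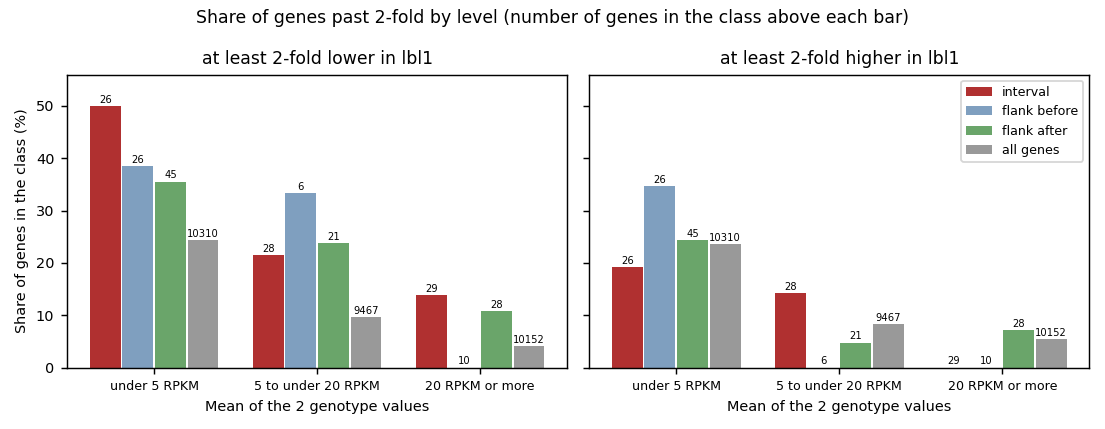
Share of genes, in percent, at least 2-fold lower (left) and at least 2-fold higher (right) in lbl1, in 3 classes of the mean RPKM, with the number of genes of each class above its bar. In the interval the share at least 2-fold lower went from 50% in the lowest class to 13.8% in the highest, where no gene of the interval was 2-fold higher.

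Genes with overlapping annotation had the lower ratios. A locus in the table is the span of all overlapping annotated transcripts, and 34 of the 83 genes had a locus shared or overlapped by another gene. Of these, 14 (41.2%, background 15.5%) were at least 2-fold lower and their median log2 ratio was -0.87. Among the 49 genes with a locus of their own, 9 were at least 2-fold lower (18.4%, background 11.8%), 5 were higher (background 12.1%), and the median was -0.20. Over all genes the 2 medians were -0.10 and -0.09. In the flanks, 3 of 7 (42.9%) and 8 of 27 (29.6%) genes with an overlapping locus were at least 2-fold lower, with medians of -0.34 and -0.09. The flank genes with a locus of their own had medians of -0.15 and -0.05. Without its overlapping genes the median of the interval was thus close to that of the earlier flank.

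At most shared loci of the interval the genes went the same way. The 83 genes stand at 69 loci, and 27 of them share 13 loci. At 9 of those 13 loci all genes were lower in lbl1, at 2 all were higher, and at 2 they went in opposite directions. The same count was not made over all genes. With most genes of the interval lower, many shared loci would agree in any case, so no trait of shared loci is read from it. With the values summed over each locus, 17 of 69 loci were at least 2-fold lower (24.6%) and 6 higher (8.70%), and the median was -0.38. Over the loci of all genes these values were 11.3%, 11.5% and -0.09. Reads from overlapping genes may be divided between them by the counting, and whether this was done by strand is not given in the sources used here.

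Of the 83 genes, 44 matched a gene of the later RefSeq annotation. These had a median level of 25.2 RPKM in wild type, and 10 (22.7%, background 4.99%) were at least 2-fold lower and 2 higher (background 8.21%). The median log2 ratio was -0.47 in the interval and -0.04 over all matched genes. In the flanks, 0 of 9 and 6 of 37 matched genes were at least 2-fold lower. The 39 genes without a match, with a median of 5.63 RPKM in wild type, had 13 lower (33.3%, background 20.9%) and 7 higher (background 17%), and a median log2 ratio of -0.42.

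The flanks also hold genes listed at 0. From 45 to 55 Mb, the 3 genes that differed most on the log2(RPKM + 1) scale were GRMZM2G540873 (13.4 RPKM in wild type, 0 in lbl1), AC187279.3_FG003 (4.84 RPKM, then 0) and GRMZM2G521081 (0, then 4.01 RPKM). From 65 to 75 Mb they were GRMZM2G579788 (63.3 RPKM, then 0), GRMZM2G579793 (30.6 RPKM, then 0) and GRMZM2G014705 (0.108, then 25.4 RPKM). The megabase just past the interval, from 65 to 66 Mb, had 9 of 14 genes at least 2-fold lower (background 12.9%), more than any 1-Mb bin within it.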

How the data were processed

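Messenger RNA of wild-type and lbl1 apices was sequenced, and per the study's methods the authors aligned reads to B73 RefGen_v2 with TopHat 1.2.0 and computed RPKM with Cuffdiff 1.0.3. The deposited table holds 1 RPKM per gene and genotype, pooled over 2 samples. Its further columns hold the authors' own comparison (log2 ratio, test statistic, p, q and a verdict) and were not used. The table gives no depth or counts, so no interval or test is given. Cuffdiff marked 71 of the 83 genes as having enough alignments (the minimum was 50), 6 as not tested and 6 as failed.

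Ratios, counts and medians were computed with Python 3.11.15, numpy 2.4.6 and pandas 2.3.3, tested on simulated data, and drawn with matplotlib 3.10.9. No pseudocount was added unless stated. Coordinates are 1-based B73 RefGen_v2, with 1 added to the deposited start. RefSeq (NAM-5.0) supplied names and biotypes only, without descriptions, so genes could not be grouped by function, and no sequence was at hand.

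Named by rule are genes at 0 in 1 genotype, the 10 with the largest and the 10 with the smallest log2 ratio of (RPKM + 1), the 10 most abundant, 3 on each side of the filter and 3 per flank; genes with RefSeq names and neighbours were added after their values were seen. The interval, lists and splits (level, overlap, match, length, groups of neighbours) were chosen with earlier results of these data known. Alternatives were the fold, pseudocount, filter, scaling, overlap, alignment status, flank and bin widths.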

Additional observations from a re-analysis of the deposited data

How the results depend on the processing

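In this paragraph brackets after a count give its share and then the share of all genes under the same setting. The count of genes at least 2-fold lower was 23 of 83 (27.7%, 12.9%). At 1.5-fold it was 36 of 83 (43.4%, 23.6%) and at 4-fold 13 of 83 (15.7%, 5.87%). With 5 RPKM in either genotype it was 12 of 60 (20%, 8.44%), and with 1 RPKM in both 12 of 66 (18.2%, 6.79%). With no filter it was 51 of 126 (40.5%, 22.8%), and without overlapping loci 9 of 49 (18.4%, 11.8%). Among genes matched in RefSeq, a setting chosen after seeing the data, it was 10 of 44 (22.7%, 4.99%). The count at least 2-fold higher was 9 of 83 (10.8%, 12.6%). At 4-fold it was 2 of 83 (2.41%, 6.53%), and with a pseudocount of 1 RPKM 5 of 83 (6.02%, 9.02%). With 5 RPKM in either genotype it was 4 of 60 (6.67%, 8.36%), and with 1 RPKM in both 4 of 66 (6.06%, 6.36%). With no filter it was 20 of 126 (15.9%, 19.3%), without overlapping loci 5 of 49 (10.2%, 12.1%) and among matched genes 2 of 44 (4.55%, 8.21%). Both directions together gave 32 of 83 (38.6%, 25.4%), and 15 of 83 (18.1%, 12.4%) at 4-fold. With 5 RPKM in either genotype they gave 16 of 60 (26.7%, 16.8%), and with 1 RPKM in both 16 of 66 (24.2%, 13.2%). With no filter they gave 71 of 126 (56.3%, 42.1%), without overlapping loci 14 of 49 (28.6%, 23.9%) and among matched genes 12 of 44 (27.3%, 13.2%). In each of these settings the share of lower genes was above, and the share of higher genes below, that of all genes. With 1 RPKM in both genotypes the higher shares were nearly the same, at 6.06% and 6.36%. The median log2 ratio of the interval stayed negative in every setting run, from -0.48 to -0.20, the latter without overlapping loci. It was -0.35 centred on the all-gene median and -0.40 scaled by the 75th percentile. With flanks of 5 Mb the medians were -0.11 and -0.08. With bins of 2 Mb, the bin of the interval with most genes past 2-fold by count was 61 to 63 Mb, with 10. In the later flank, 65 to 67 Mb held 11.

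The table has 1 pooled value per genotype and no depth, so leaving out a sample was not run and the unknown spread between samples limits every statement. No paired analysis was possible because the pooled columns carry no replicate numbers.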

Other observations

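Most annotated genes of the interval were below the filter. Of the 372 genes, 289 stayed under 1 RPKM in both genotypes, 245 of them at 0 in both and 44 above 0 in at least 1. The share of unnamed genes that met the filter was 22.4%, against 13.7% from 45 to 55 Mb and 22.6% from 65 to 75 Mb. The one gene of the interval with a name in the table, DBP4 (GRMZM2G380377), was at 0.753 RPKM in wild type against 0.895 in lbl1. RefSeq also calls it EREB56, a name of the family of AP2/ERF transcription factors. GRMZM2G155943, at a locus of 55769 bp that is the longest of the 83, was at 20.8 and 9.26 RPKM (2.25-fold lower).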
